A study of Mus musculus with 23 samples.

Results

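Lysosomes are the acidic compartments in which cells break down proteins, glycans, glycogen and lipids. The 41 genes described here encode lysosomal proteases, sugar- and sulfate-cleaving enzymes, lipid hydrolases and lipid transfer proteins, phosphatases, progranulin and proteins of the lysosomal membrane. They were chosen by symbol, each measured by probe sets annotated to that gene alone, and the probe set of highest mean over all arrays was taken for each gene. All 41 were found among 19937 genes, 1 of them with more than 1 probe set, and none was at the lower limit of the deposited values on any array.

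Newly made hydrolases receive a mannose 6-phosphate tag, are carried to the lysosome by receptors for that tag, and work at the low pH that the vacuolar proton pump, the V-ATPase, maintains. Many lysosomal genes carry an E-box in their promoter that transcription factors of the MiT/TFE family (TFEB, TFE3, MITF and TFEC) can bind. Granulocytes and monocytes hold large stores of these enzymes, and the granules of granulocyte progenitors are themselves related to lysosomes.

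The data are 23 Affymetrix arrays, 1 per sorted sample of mouse marrow progenitors, in 9 groups. Cebpa encodes C/EBPa, a transcription factor needed for the step from common myeloid progenitors (CMPs) to granulocyte-macrophage progenitors (GMPs), and its floxed alleles (C/EBPa f/f) were deleted in knockout mice by Mx.1-Cre, a recombinase driven by an interferon-inducible promoter that acts in many tissues. Controls carried the floxed alleles without the recombinase, and all donors, controls included, received poly I:C on 3 occasions. Of the marrow taken 5 days later without a leukaemia gene there were 4 arrays of knockout CMPs, 3 of control GMPs and 4 of control CMPs. The other groups came from irradiated recipients of cells that had been cultured with stem cell factor, thrombopoietin and IL-3 and infected with a retrovirus carrying the fusion oncogene MLL-AF9 and GFP. Leukaemic GMPs (L-GMPs) of knockout origin (1 array from a primary and 2 from secondary recipients) all descend from 1 leukaemia, in a recipient given vectors that express IL-3 and GM-CSF, so cytokine exposure and genotype cannot be told apart there. L-GMPs of control origin gave 2 arrays from primary and 2 from secondary recipients, from recipients that the labels do not describe as given those vectors. GFP+ knockout progenitors that carried MLL-AF9 without leukaemia gave 3 arrays of CMPs and 2 of KSLs (lineage-negative, Sca-1+, c-kit+ cells enriched for stem cells) from 3 recipient mice, 2 of which supplied both cell types. Whether these mice received the cytokine vectors is not stated for them.

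The labels do not say for every group that replicate arrays come from separate animals, so p-values measure the spread between arrays. Median within-group SD over all genes was 0.115 to 0.119 log2 units in the groups without MLL-AF9 and 0.11 to 0.242 in the transplanted groups. Cebpa stood at 4.99 to 5.55 in knockout CMPs and 7.19 to 7.83 in control CMPs, and at 4.33 to 5.15 in knockout L-GMPs and 7.36 to 7.96 in control L-GMPs. Kit, which belongs to every gate used, ranged from 6.33 on a secondary control L-GMP array to 10.78 on an MLL-AF9 KSL array. Cd34, which belongs to the CMP gate, was lower in MLL-AF9 knockout CMPs, at 8.40 ± 0.37 (SD, n = 3), than in knockout CMPs without MLL-AF9, at 10.23 ± 0.17 (SD, n = 4). Both arrays of recipient mouse 9 stand apart from the other 3 arrays of MLL-AF9 progenitors in a list of mast cell and basophil genes, as described below.

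The 41 genes were brighter, with a median mean level of 7.65 against 5.48 over all genes (log2 units), which does not rank RNA amounts. Their group means also lay further apart, though no set of equally bright genes was compared, and the processing compresses changes of dim genes. The distance between the highest and the lowest of the 9 group means had a median of 1.31 log2 units for the lysosomal genes and 0.69 for all genes. It reached 1 or more for 31 members and 2 or more for 9, with the widest spans for Ctsh at 4.89 and Ctse at 3.15. Knockout L-GMPs of secondary recipients held the highest mean of 19 members, against 9.78% of all genes that were highest there. Knockout CMPs held the highest mean of 0 members, against 12.2% of all genes, and the lowest of 10, against 10.8%. MLL-AF9 knockout KSLs held the lowest of 13, against 13% of all genes. The average over the 41 members was 7.97 to 8.29 on the knockout L-GMP arrays, 7.75 to 8.0 in control L-GMPs, 7.28 to 7.62 in MLL-AF9 progenitors, 7.98 to 8.08 in control GMPs, 7.24 to 7.44 in knockout CMPs and 7.66 to 7.78 in control CMPs. Knockout and control CMPs therefore did not overlap in this average, while knockout and control L-GMPs overlapped slightly.

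**Figure D1:**
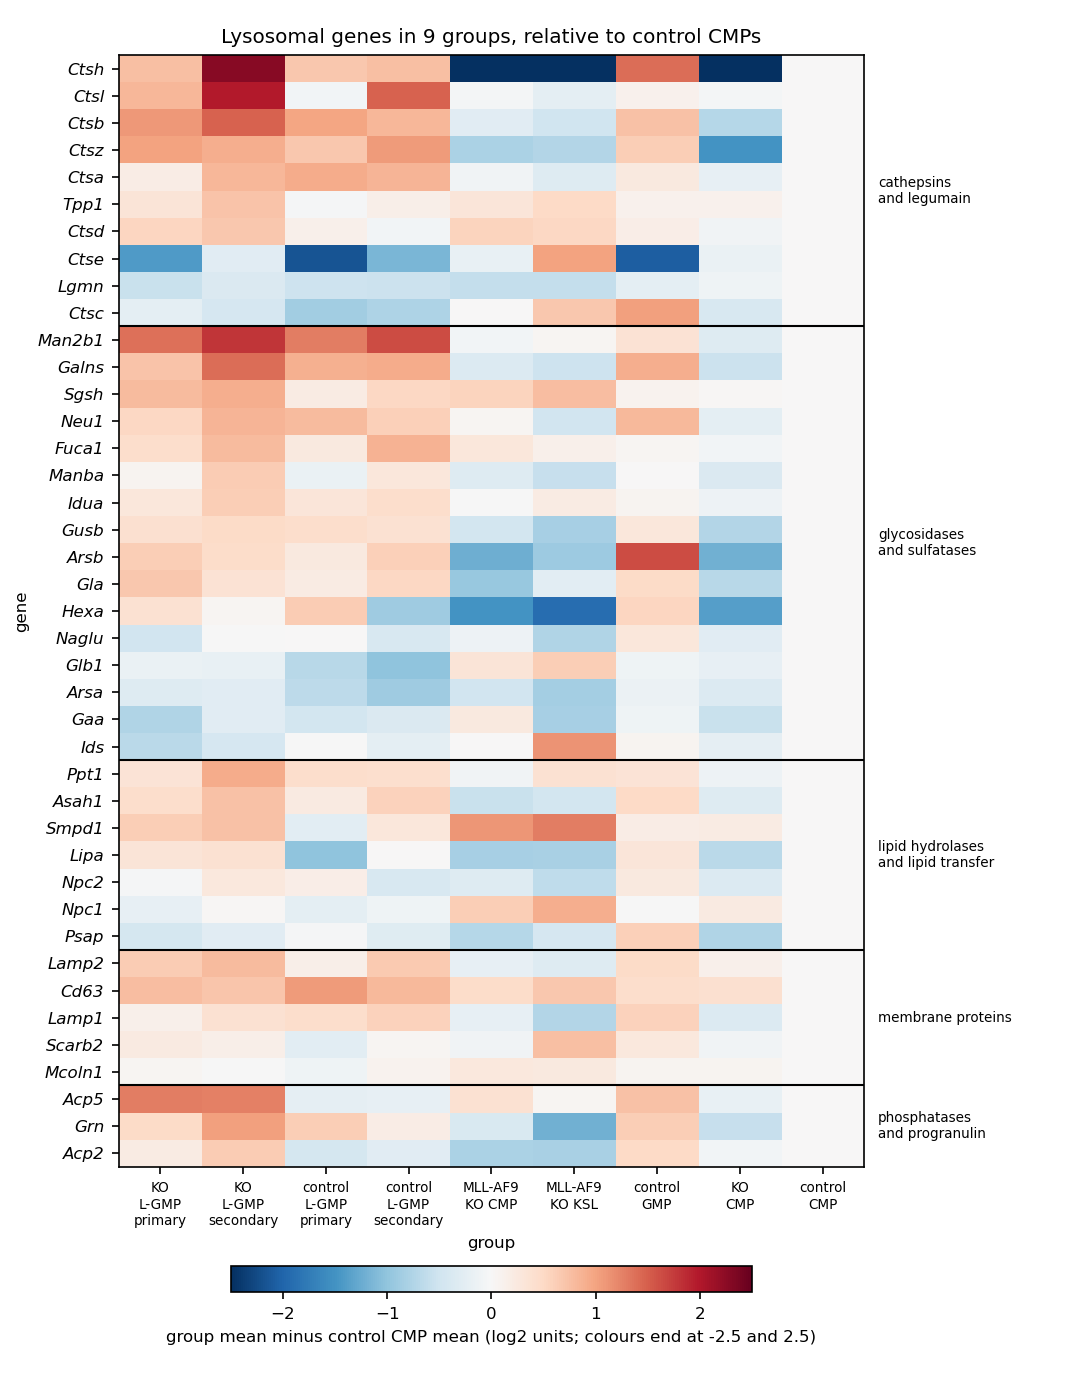
Mean log2 level of each of the 41 lysosomal genes (rows, grouped by role) in the 9 groups (columns), as the difference from the control CMP mean in log2 units, with red higher and blue lower. Ctsh spans the widest range, and the knockout CMP column holds the lowest mean of 10 members, against 10.8% of all genes.

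Knockout CMPs were compared with control CMPs to ask which of these genes depend on C/EBPa before transformation. 7 members were lower in knockout CMPs and 0 were higher at an adjusted p below 0.05. Over all genes 2.64% were called lower and 2.27% higher. The change was negative for 34 of 41 members, with a median of -0.25 log2 units against 0 for all genes. 17 members were lower on every knockout array than on every control array, where 11.3% of all genes were, and 1 was higher without overlap, where 9.86% of all genes were. With bulk RNA, fewer cells of a type and less RNA per cell cannot be told apart. Those called were 3 cathepsins (Ctsh, Ctsz and Ctsb) and 4 enzymes that strip sugars or sulfate from glycans (Hexa, Arsb, Gusb and Galns), while 0 of 7 lipid genes, 0 of 5 membrane genes and 0 of 3 phosphatase and progranulin genes were called. Without a call, Psap, Lipa, Asah1, Lamp1 and Grn of these other roles were also lower on every knockout array than on every control array. Cd63 was higher without overlap.

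Ctsh, an aminopeptidase-type cysteine cathepsin, stood at 4.25, 4.31, 4.18 and 4.11 on the knockout CMP arrays, against 6.93, 6.74, 6.27 and 7.40 on the control CMP arrays (log2 levels). The gap between the nearest arrays of the groups was wide, and Ctsh fell by 2.62 on the log2 scale (SE 0.23, 6.14-fold, adjusted p = 7.47e-06). Ctsz, a carboxypeptidase-type cathepsin, was at 6.48, 6.85, 6.77 and 6.72 in knockout CMPs and at 8.18, 8.01, 8.08 and 8.56 in control CMPs. It fell by 1.50 (SE 0.16, adjusted p = 4.24e-05), again with no overlap. Ctsb, a broad-range cysteine protease, was at 7.20, 7.54, 7.33 and 7.37 in knockout CMPs and at 7.96, 8.02, 8.17 and 8.16 in control CMPs, a fall of smaller size (-0.72, SE 0.14, adjusted p = 0.00598).

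Among the glycan-degrading enzymes, Hexa, the alpha subunit of the hexosaminidase that clears GM2 ganglioside, was at 7.83, 7.93, 7.81 and 7.88 in knockout CMPs and at 9.15, 9.15, 9.31 and 9.36 in control CMPs. The arrays of each group lay close together, and Hexa fell by 1.38 (SE 0.20, adjusted p = 0.000871). Arsb, which removes sulfate from dermatan and chondroitin sulfate, was at 6.47, 6.61, 6.94 and 6.92 in knockout CMPs and at 7.85, 7.43, 7.97 and 8.50 in control CMPs (change -1.20, SE 0.23, adjusted p = 0.00633). Gusb, the beta-glucuronidase of glycosaminoglycan breakdown, was at 7.34, 7.38, 7.32 and 7.41 in knockout CMPs and at 7.92, 8.02, 8.30 and 8.13 in control CMPs (change -0.73, SE 0.11, adjusted p = 0.0014). Galns, a sulfatase for keratan and chondroitin sulfate, had a smaller change of -0.54 (SE 0.13, adjusted p = 0.0253), and its call ended when any of 7 of the 8 arrays was left out, with adjusted p up to 0.0901. The 34 members not called ranged from -0.75 for Psap, the precursor of the saposins that help lipid hydrolases, to 0.40 for Cd63, a tetraspanin of lysosome and granule membranes. With array weights, 18 members were called lower and 0 higher, and with the CMP arrays fitted alone with their own spread 15 and 0, while calls over all genes went to 3762 and 3220 against 979.

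**Figure D2:**
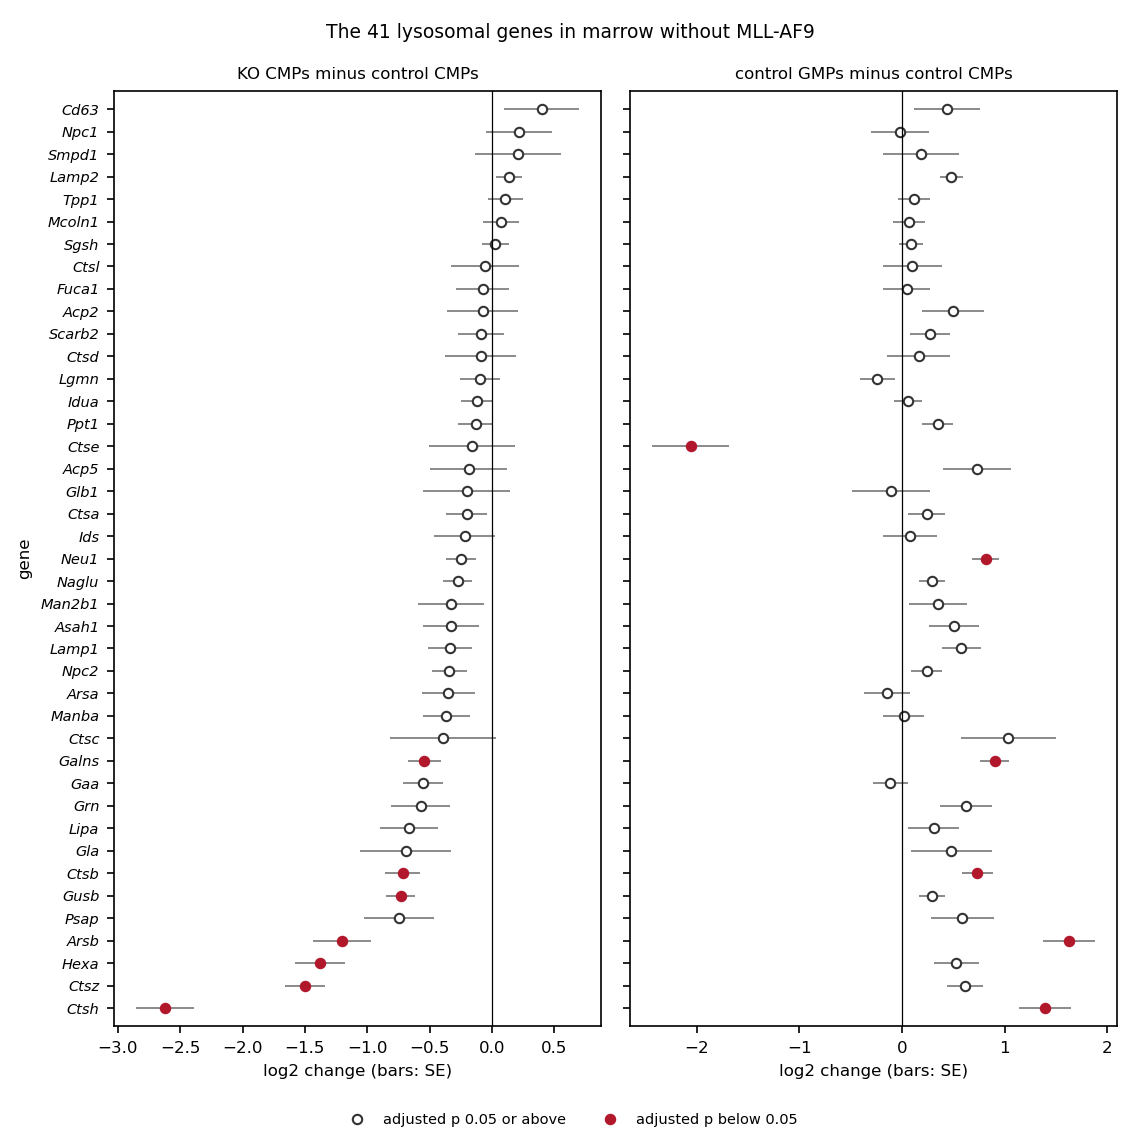
Log2 change with SE of the 41 genes in knockout against control CMPs (left) and in control GMPs against control CMPs (right), in the order of the left panel. Filled points passed an adjusted p below 0.05, 7 on the left and 6 on the right, and Ctsh lies farthest left in the knockout panel at -2.62.

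Genes of the same pathway outside the 41 were described from lists. Of 16 measured V-ATPase genes, 2 were lower in knockout CMPs (Atp6v0e by -0.52 and Atp6ap1 by -0.46, log2) and 0 higher, with a list median of -0.24. Of 10 genes for mannose 6-phosphate tagging and sorting, 0 were called (median -0.27). Among 19 other hydrolases and cofactors, Ctss, a cysteine cathepsin of antigen-presenting cells, fell by 2.42 (SE 0.48), and Ctsw, a cathepsin of lymphocytes, rose by 1.96 (SE 0.28). Cd68, a glycoprotein of the lysosomal membrane in macrophages, was the 1 of 17 other membrane genes to be called (-1.54, SE 0.31), and Cst3, which encodes a secreted inhibitor of cysteine cathepsins, the 1 of 7 cystatins (-0.98, SE 0.20).

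Of the 4 MiT/TFE factors, Tfec alone was called. Tfec, whose expression is known mainly from macrophages, was at 5.88, 5.41, 5.72 and 5.67 in knockout CMPs, against 8.99, 8.50, 9.21 and 8.99 in control CMPs (change -3.25, SE 0.28, adjusted p = 4.35e-06). Its fall was deeper than that of any of the 41 members, and the groups lay far apart. Tfeb, the family member best known for lysosomal gene control, was at 5.40 to 5.63 in knockout CMPs and 5.77 to 6.07 in control CMPs and was not called.

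Monocyte and primary granule markers moved with the members. In knockout CMPs 6 of 7 measured monocyte genes and 5 of 6 primary granule genes were lower. The mean level of the monocyte list was 4.74 to 5.59 in knockout CMPs and 8.03 to 8.40 in control CMPs, and that of the primary granule list was 6.80 to 8.08 in knockout CMPs and 9.84 to 10.87 in control CMPs. Among mature neutrophil genes Cxcr2 alone was called (-3.33), and the uncalled changes ran from -1.56 for S100a8 to 0.17 for Mmp9. Among eosinophil genes Prg2 (-2.75) and Epx (-0.80) were called lower, and Ear6 (-0.25) was not called. The part of these lists in the fall of the members was not tested. Macrophage genes were low in both groups, with a list mean of 4.36 to 4.75 in knockout CMPs and 4.41 to 4.51 in control CMPs and 0 of 12 genes called.

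Promoter windows from 250 bases before to 50 bases after the start of each gene were read from RefSeq (GRCm38.p6) and were at hand for 35 of the 41 members. The entries for Ctsb, Ctse, Ctsh, Galns, Asah1 and Npc1 were not at hand. The E-box letters CACGTG, a palindrome and so the same on both strands, were found in the windows of 12 of 35 members (34.29%), against 8.09% of 27025 genes. The longer form TCACGTG, searched on both strands and overlapping the E-box, was found in 11 members (31.43%) against 4.29% of genes, and the M-box TCATGTG on both strands in 7 members (20.0%) against 4.31%. The letters TTGCNNAA, a core of C/EBP sites searched on both strands and added after the values had been seen, occurred in 5 members (14.29%) against 12.2% of genes. A match is a description of the letters and shows neither a bound site nor a cause.

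Among members with a window, 0 of the 12 E-box holders and 4 of the 23 others were called lower in knockout CMPs. Their median changes were -0.20 and -0.25 log2 units. Ctsh, Ctsb and Galns, also called lower, had no window. Windows are printed for 2 members that fell (Ctsz and Hexa), for Lamp1, which holds 4 E-boxes and encodes the main glycoprotein of the lysosomal membrane, and for Sgsh and Gaa, which each hold 1 and changed in later comparisons. These were picked after the values were seen, since the rule set for choosing them (called in knockout CMPs or control GMPs, with an E-box) named 0 genes. Capitals mark the E-box and, in Gaa, a further match to TTGCNNAA on the opposite strand.
Ctsz: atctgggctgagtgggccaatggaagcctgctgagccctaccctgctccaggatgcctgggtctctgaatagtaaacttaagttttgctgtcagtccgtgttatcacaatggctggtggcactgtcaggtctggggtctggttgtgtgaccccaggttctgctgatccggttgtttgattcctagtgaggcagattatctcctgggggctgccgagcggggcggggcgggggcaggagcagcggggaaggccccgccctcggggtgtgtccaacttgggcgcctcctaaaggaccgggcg
Hexa: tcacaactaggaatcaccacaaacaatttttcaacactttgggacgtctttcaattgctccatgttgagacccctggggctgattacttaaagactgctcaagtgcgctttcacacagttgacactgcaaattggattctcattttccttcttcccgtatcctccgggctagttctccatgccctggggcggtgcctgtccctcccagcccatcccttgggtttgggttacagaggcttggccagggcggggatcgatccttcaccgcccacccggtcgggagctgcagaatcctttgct
Lamp1: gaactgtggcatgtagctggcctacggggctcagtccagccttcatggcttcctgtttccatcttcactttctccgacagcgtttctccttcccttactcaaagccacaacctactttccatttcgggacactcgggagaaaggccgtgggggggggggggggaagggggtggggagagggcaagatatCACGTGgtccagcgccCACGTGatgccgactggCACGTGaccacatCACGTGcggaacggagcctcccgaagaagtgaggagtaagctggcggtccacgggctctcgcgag
Sgsh: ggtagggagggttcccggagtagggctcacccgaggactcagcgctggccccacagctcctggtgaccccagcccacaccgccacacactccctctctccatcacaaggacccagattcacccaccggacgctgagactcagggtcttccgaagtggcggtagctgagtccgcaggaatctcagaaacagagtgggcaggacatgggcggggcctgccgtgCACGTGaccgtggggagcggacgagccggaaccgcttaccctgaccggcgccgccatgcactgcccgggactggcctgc
Gaa: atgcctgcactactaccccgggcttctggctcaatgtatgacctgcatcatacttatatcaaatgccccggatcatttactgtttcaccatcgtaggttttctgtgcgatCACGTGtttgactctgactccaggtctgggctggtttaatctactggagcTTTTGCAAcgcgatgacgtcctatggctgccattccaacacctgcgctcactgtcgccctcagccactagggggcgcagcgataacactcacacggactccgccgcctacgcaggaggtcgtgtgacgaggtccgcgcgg
The windows lie, on GRCm38.p6, at chr2:174438990-174439289 on the minus strand for Ctsz, chr9:59539290-59539589 on the plus strand for Hexa, chr8:13158911-13159210 on the plus strand for Lamp1, chr11:119355461-119355760 on the minus strand for Sgsh and chr11:119267713-119268012 on the plus strand for Gaa. In Lamp1 the E-boxes begin at -61, -45, -28 and -15 relative to the start, in Sgsh at -29 and in Gaa at -140. Neither the Ctsz nor the Hexa window holds any of the 4 letter patterns. Lamp1 and Sgsh, with E-boxes close to the start, changed by -0.34 and 0.03 in knockout CMPs and were not called. The part of these letters in the changes was not tested.

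Control GMPs were compared with control CMPs, the normal step that needs C/EBPa. This comparison shares the control CMP arrays with the previous one, so the values of both are given side by side without a test of their likeness. 5 members were higher in GMPs and 1 lower, where 0.717% of all genes were called higher and 0.331% lower. The change was positive for 35 of 41 members, with a median of 0.29 against 0 for all genes. 22 members were higher on every GMP array than on every CMP array, against 8.34% of all genes, and 1 was lower without overlap, against 7.97%.

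Arsb was at 9.36, 9.53 and 9.81 in GMPs, against 7.85, 7.43, 7.97 and 8.50 in CMPs, and rose by 1.63 (SE 0.25, 3.09-fold, adjusted p = 0.00395). Galns was at 7.81, 7.58 and 7.68 in GMPs and at 6.53, 6.76, 6.94 and 6.93 in CMPs (change 0.90, SE 0.14, adjusted p = 0.00429). Neu1, the lysosomal sialidase, was at 6.44, 6.95 and 6.90 in GMPs and at 6.0, 5.88, 5.87 and 6.04 in CMPs (change 0.81, SE 0.13, adjusted p = 0.00418). For these 3 enzymes the groups did not overlap and the call held without any single array.

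Ctsh was at 8.75, 7.88 and 8.04 in GMPs and at 6.93, 6.74, 6.27 and 7.40 in CMPs (change 1.39, SE 0.25, adjusted p = 0.0114). Its call ended without the first GMP array (adjusted p = 0.07) and with the arrays of these groups fitted alone (0.0771). Ctsb was at 8.84, 8.94 and 8.66 in GMPs and at 7.96, 8.02, 8.17 and 8.16 in CMPs (change 0.73, SE 0.15, adjusted p = 0.024), and its call ended without any of 6 of the 7 arrays. Ctse went the other way. This aspartic protease of endosomes was at 6.09, 6.36 and 6.72 in GMPs, against 8.34, 8.96, 8.37 and 8.12 in CMPs (change -2.06, SE 0.37, adjusted p = 0.0114), and its call ended without any of 3 of the 7 arrays. Without the first GMP array 3 members in all were called, and with array weights 16, of them 15 higher. With array weights, calls over all genes went to 1257 against 209.

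Set beside the knockout, Ctsh changed by -2.62 in knockout CMPs and by 1.39 in control GMPs, each against control CMPs, Arsb by -1.20 and 1.63, Ctsb by -0.72 and 0.73, and Galns by -0.54 and 0.90. Hexa, Ctsz and Gusb changed by -1.38, -1.50 and -0.73 in knockout CMPs and by 0.53, 0.61 and 0.29 in control GMPs, the last 3 not called. Neu1 was called in the GMPs alone, with -0.25 in knockout CMPs, as was Ctse, with -0.16. Tfec was higher in control GMPs by 1.06, which did not pass (adjusted p = 0.142). Among the pathway lists, Atp6v1a, a catalytic subunit of the V-ATPase, rose by 0.65 and was the 1 of 16 called, and Man2b2, an alpha-mannosidase, rose by 0.51 and was the 1 of 19 other hydrolases called. In the tagging and sorting, other membrane, cystatin and MiT/TFE lists 0 genes were called. The monocyte list had 1 of 7 genes called higher and a mean of 8.64 to 9.74 in GMPs and 8.03 to 8.40 in CMPs. Markers of other lineages also differed between these gates. Of the eosinophil genes 3 of 3 were higher (Prg2 by 3.25, Ear6 by 2.71 and Epx by 1.99), with a list mean of 8.06 to 8.21 in GMPs and 4.84 to 6.0 in CMPs. Of the mature neutrophil genes 3 of 10 were higher, among them S100a8 by 4.03, and 1 was lower, with a list mean of 6.48 to 6.74 in GMPs and 5.09 to 5.91 in CMPs. Of the erythroid genes 3 of 5 were lower, among them Car1 with -3.98, with a list mean of 5.58 to 5.89 in GMPs and 7.49 to 8.48 in CMPs. 1 of 4 megakaryocyte genes was lower, and 1 of 7 mast cell and basophil and 1 of 12 macrophage genes were higher. The part of these lists was not tested.

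Knockout L-GMPs were compared with MLL-AF9 knockout progenitors that had not become leukaemic, the mean of CMPs and KSLs. Of the 41 members, 21 were higher and 2 lower in knockout L-GMPs, where 7.27% of all genes were higher and 5.93% lower. The median change was 0.59 log2 units against -0.02 for all genes. Higher genes came from every role: 5 of 10 cathepsins and related proteases, 7 of 16 glycosidases and sulfatases, 4 of 7 lipid genes, 2 of 5 membrane genes and all 3 phosphatase and progranulin genes. Since every knockout L-GMP array descends from 1 leukaemia, the test compares that leukaemia with the progenitors.

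Ctsh was at 7.58 in the primary and 8.78 and 9.42 in the secondary knockout L-GMPs, against 4.40, 4.26 and 4.22 in MLL-AF9 CMPs and 4.07 and 4.37 in KSLs. That is a change of 4.08 (SE 0.25, 16.9-fold, adjusted p = 3.45e-08), the largest of the 41, and the progenitors were as low as knockout CMPs without MLL-AF9, at 4.11 to 4.31. Hexa was at 9.62, 9.16 and 9.44 in knockout L-GMPs, against 7.28, 7.46 and 8.50 in MLL-AF9 CMPs and 7.62 and 7.04 in KSLs (change 1.92, SE 0.22, adjusted p = 1.82e-05). Ctsz was at 9.22, 9.08 and 9.14 in knockout L-GMPs and at 7.44, 7.21 and 7.58 in MLL-AF9 CMPs and 7.84 and 7.12 in KSLs (change 1.72, SE 0.17, adjusted p = 5.45e-06). All arrays of knockout L-GMPs exceeded all progenitor arrays for these 3 genes.

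Ctsb was at 9.16, 9.44 and 9.66 in knockout L-GMPs, against 7.49, 7.82 and 8.05 in MLL-AF9 CMPs and 7.37 and 7.78 in KSLs (change 1.68, SE 0.15). Arsb was at 8.56, 8.19 and 8.62 in knockout L-GMPs, against 7.01, 6.80 and 6.32 in MLL-AF9 CMPs and 7.29 and 6.77 in KSLs (change 1.61, SE 0.25). Man2b1, the main lysosomal alpha-mannosidase, was at 10.11, 10.62 and 10.44 in knockout L-GMPs, against 9.51, 8.03 and 8.50 in MLL-AF9 CMPs and 9.39 and 8.21 in KSLs (change 1.58, SE 0.28). None of these 3 overlapped between L-GMPs and progenitors, and the adjusted p was 1.38e-06, 0.000359 and 0.0012 in that order.

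The other members called higher in knockout L-GMPs ranged from 0.49 to 1.56 log2 units. They included Grn, the precursor of the granulins, with 1.56, Ctsl, a cysteine endopeptidase, with 1.56, Galns with 1.48, Acp2, a lysosomal acid phosphatase, with 1.22, Lipa, the acid lipase for cholesteryl esters, with 1.17, Asah1, acid ceramidase, with 1.10, Gusb with 1.08 and Acp5, tartrate-resistant acid phosphatase, with 1.05. Lamp2, a membrane glycoprotein needed for autophagic flux, rose by 0.97, Neu1 by 0.90, Manba, a beta-mannosidase, by 0.80, Lamp1 by 0.73, Ctsa, the protective carboxypeptidase of the sialidase complex, by 0.72, Npc2, which binds cholesterol, by 0.59 and Ppt1, which removes palmitate from proteins, by 0.49. Ctse (-1.27) and Ids, a sulfatase for heparan and dermatan sulfate (-1.11), were lower, and both overlapped between the groups. Among members with a promoter window, 3 of 12 with an E-box and 14 of 23 without were higher, and Lamp1, with its 4 E-boxes, was 1 of those 3.

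The call of Ctse (adjusted p = 0.0332) ended without any of 4 of the 8 arrays (up to 0.321), that of Ppt1 without any of 5 (up to 0.132) and that of Acp5 without any of 4 (up to 0.148). Npc2 lost its call without either of 2 arrays, and Ctsa and Lamp1 each without 1. With the arrays of these groups fitted alone, 5 members stayed called (Ctsh, Ctsb, Ctsz, Galns and Arsb). Calls over all genes went to 347 against 2632 in that fit. With the MLL-AF9 CMP arrays alone as the comparison, 1 per recipient mouse, 17 were higher and 1 lower, and without both arrays of recipient mouse 9, 22 were higher and 3 lower. In these fits calls over all genes were 2647 and 3569 in that order.

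Control L-GMPs were set against the same progenitors, so genotype differs along with leukaemia and the progenitor arrays are shared with the previous comparison. 15 members were higher in control L-GMPs and 4 lower, where 8.51% and 10.5% of all genes were called. The median change was 0.35 against 0.00 for all genes. Ctsh was at 7.28 and 7.75 in primary and 7.87 and 7.30 in secondary control L-GMPs, against 4.07 to 4.40 in the progenitors (change 3.29, SE 0.22, 9.77-fold, adjusted p = 7.37e-08). Ctsz was at 8.59, 9.17, 9.20 and 9.34 in control L-GMPs, against 7.12 to 7.84 in the progenitors (change 1.63, SE 0.15, adjusted p = 2.33e-06). Both genes were higher on every control L-GMP array.

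Hexa was at 9.68 and 10.07 in primary but 8.52 and 8.20 in secondary control L-GMPs, against 7.04 to 8.50 in the progenitors (change 1.58, SE 0.19, adjusted p = 3.49e-05), so the lower of the secondary arrays lay below the highest progenitor array. Arsb was at 8.58, 7.79, 8.64 and 8.43 in control L-GMPs, against 6.32 to 7.29 in the progenitors (change 1.49, SE 0.22), and Man2b1 at 9.81, 10.23, 10.48 and 10.28, against 8.03 to 9.51 (change 1.46, SE 0.25). Neither overlapped. Ctse was at 5.93, 6.66, 7.45 and 7.15 in control L-GMPs, against 7.51 to 9.85 in the progenitors (change -2.06, SE 0.33, adjusted p = 0.000382), lower on every array.

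The other higher members were Galns (1.33), Ctsb (1.31), Grn (1.20), Ctsa (1.08), Gusb (1.06), Lamp1 (0.98), Asah1 (0.91), Neu1 (0.91), Ctsl (0.85) and Lamp2 (0.67). The other lower ones were Glb1, the lysosomal beta-galactosidase (-1.33), Smpd1, acid sphingomyelinase (-1.19), and Npc1, the membrane partner of Npc2 in cholesterol export (-0.94). Glb1 was high on the arrays of recipient mouse 9, and Smpd1 on those and on the third CMP array. The call of Ctsl ended without any of 5 of the 9 arrays (adjusted p up to 0.123), those of Smpd1 and Npc1 without either of 2 and that of Glb1 without 1. Without both arrays of that mouse Glb1 changed by -0.67 (adjusted p = 0.00777), and Smpd1 was no longer called (-0.66, adjusted p = 0.129). With the arrays of these groups fitted alone, 9 members were called, all higher, while calls over all genes went to 493 against 3780.

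**Figure D3:**
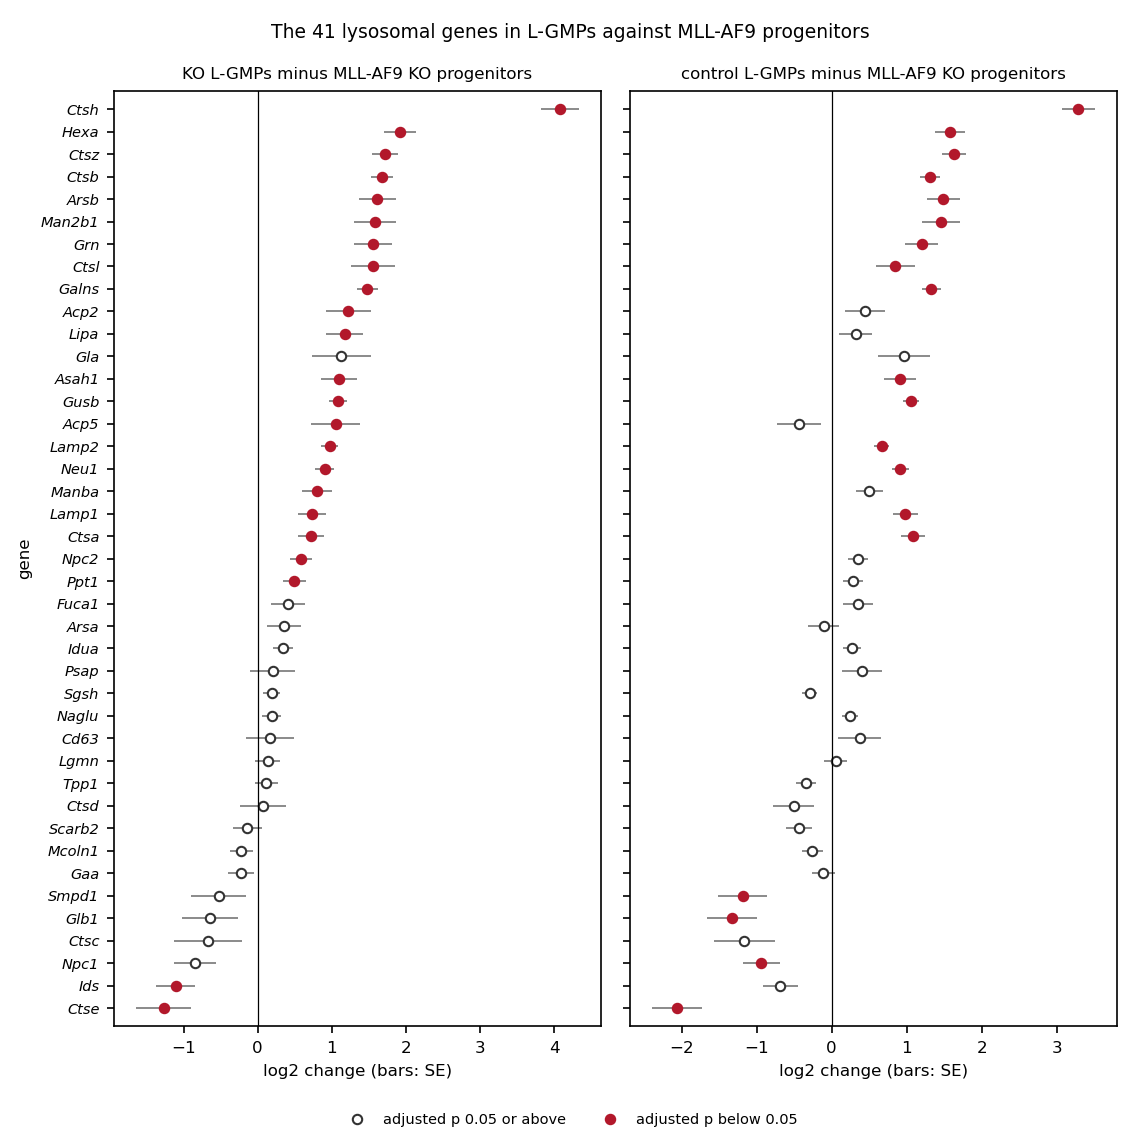
Log2 change with SE of the 41 genes in knockout L-GMPs (left) and control L-GMPs (right), each against the same MLL-AF9 knockout progenitors, in the order of the left panel. Filled points passed an adjusted p below 0.05, 23 on the left and 19 on the right, with Ctsh at the top of both panels (4.08 and 3.29).

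The pathway lists held changes in both directions in these comparisons. In knockout L-GMPs 5 of 16 V-ATPase genes were higher (among them Atp6ap2 by 1.36, Atp6v0d1 by 1.24 and Atp6v1a by 1.04) and 1 was lower. In control L-GMPs 5 were higher (Atp6v1b2 by 1.05) and 2 lower (Atp6v0a2 by -0.93). Sort1, a sorting receptor that carries some hydrolases, rose by 2.14 in knockout and 1.92 in control L-GMPs. Gnptab, which encodes the enzyme that starts the mannose 6-phosphate tag, rose by 0.50 and 0.47. Of the other hydrolases 6 were higher and 1 lower in knockout L-GMPs, and 3 and 1 in control L-GMPs, with Ctss up by 1.63 and 2.08 and Ctsw down by 1.98 and 2.60. Of 17 other membrane genes 5 were higher and 2 lower in knockout L-GMPs, and 3 and 2 in control L-GMPs. Cd68 was higher by 1.98 and 2.16 and Ctns, the lysosomal cystine transporter, by 1.31 and 1.23, while Slc11a2, a metal ion transporter of endosomes, was lower, at -0.92 and -0.71. Of 7 cystatins, inhibitors of cysteine cathepsins, 1 was higher and 1 lower in knockout L-GMPs, and 3 were higher in control L-GMPs. Cst3 was higher by 1.44 and 1.10, and Cst7 was lower (-2.22) in knockout L-GMPs.

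Tfec was at 9.83, 9.49 and 9.35 in knockout L-GMPs and at 10.34, 9.55, 9.42 and 9.39 in control L-GMPs, against 4.59, 6.28 and 5.96 in MLL-AF9 CMPs and 5.30 and 5.31 in KSLs. It was higher by 4.17 (SE 0.30, adjusted p = 1.64e-07) in knockout and 4.22 (SE 0.26, adjusted p = 3.58e-08) in control L-GMPs. Every L-GMP array lay far above every progenitor array. Tfe3 was lower in control L-GMPs (-0.51), and Tfeb was called in neither comparison. The primary granule and monocyte lists moved with the members again. Of the primary granule genes 6 of 6 were higher in knockout and 5 of 6 in control L-GMPs, with list means of 10.99 to 11.28 in knockout L-GMPs, 9.87 to 11.31 in control L-GMPs and 5.63 to 6.69 in the progenitors. Of the monocyte genes 5 of 7 were higher in each, with list means of 8.03 to 8.15, 7.66 to 8.33 and 4.62 to 5.76 in the same order. Of the mature neutrophil genes 2 of 10 were higher in knockout and 7 of 10 in control L-GMPs. Other lists ran the other way. Mast cell and basophil genes had 3 of 7 lower in knockout and 2 of 7 in control L-GMPs, and megakaryocyte genes 2 of 4 in each. Erythroid genes had 4 of 5 and 5 of 5 lower, with list means of 5.89 to 6.11 in knockout L-GMPs, 5.17 to 5.80 in control L-GMPs and 6.89 to 8.97 in the progenitors. The part of these lists was not tested, nor was that of the cytokine vectors.

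**Figure D4:**
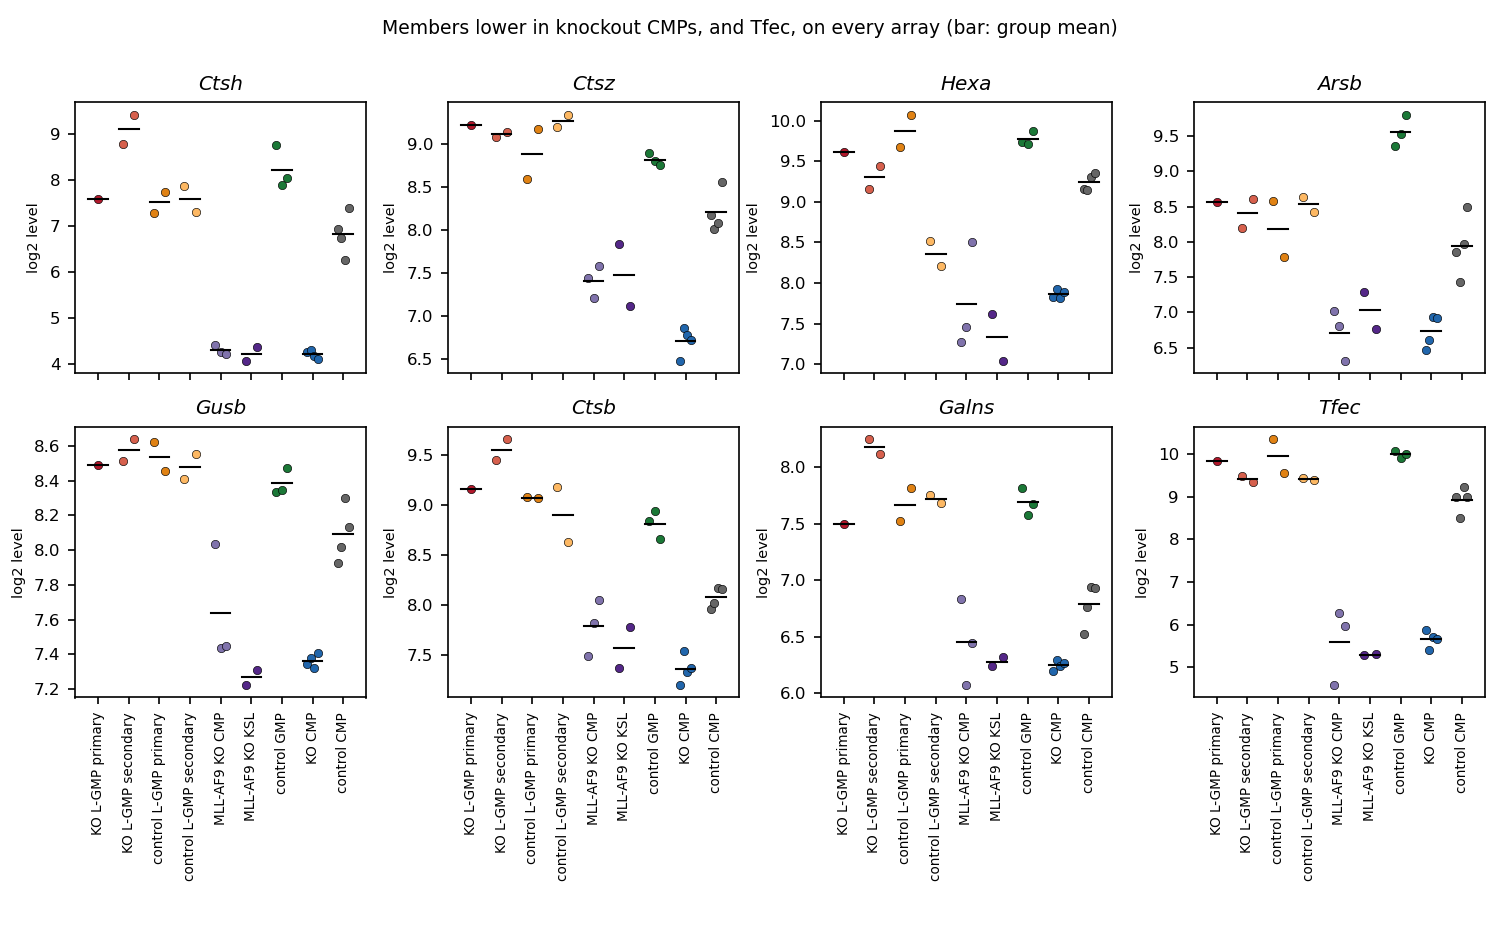
Log2 level on every array of the 7 members called lower in knockout CMPs, and of Tfec, with points for arrays and bars for group means. Ctsh sits between 4.07 and 4.40 in MLL-AF9 progenitors and knockout CMPs and at 7.28 or more in L-GMPs, and Tfec between 4.59 and 6.28 in the same cells and at 9.35 or more in L-GMPs.

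Knockout L-GMPs were compared with control L-GMPs. The knockout arrays stand for 1 leukaemia in a recipient given cytokine vectors, so the test compares that leukaemia with control L-GMPs. 2 members were called higher and 0 lower, where 2.1% of all genes were higher and 1.16% lower. The change was positive for 33 of 41 members, with a median of 0.21 against 0 for all genes, and the median absolute change was 0.30 against 0.16. 7 members were higher on every knockout array than on every control array, against 7.15% of all genes, and 1 was lower without overlap, against 6.76%. Acp5 was at 7.28, 7.27 and 7.25 in knockout L-GMPs, against 6.12, 5.43, 5.65 and 5.93 in control L-GMPs (change 1.49, SE 0.34, adjusted p = 0.0261). The groups did not overlap, but the call ended without any of 5 of the 7 arrays and with the arrays of these groups fitted alone (0.165). Sgsh, which removes sulfate from heparan sulfate and whose window with 1 E-box is printed above, was at 6.75, 6.76 and 6.96 in knockout L-GMPs, against 6.11, 6.23, 6.53 and 6.42 in control L-GMPs (change 0.48, SE 0.12, adjusted p = 0.0353). Its groups did not overlap either. The call ended with array weights (adjusted p = 0.0806), with the arrays of these groups fitted alone (0.264), with arrays shifted to 1 median and without any of 3 of the 7 arrays (up to 0.118). Lipa came next by the test without passing, at 7.94, 8.25 and 7.77 in knockout and 7.20, 6.01, 7.82 and 7.45 in control L-GMPs (change 0.85, SE 0.26, adjusted p = 0.0871). Counts of called members ran from 0 to 5 when single arrays were left out, with 0 without either secondary control array or the second secondary knockout array, and 5 without the first primary control array or the primary knockout array. In the pathway lists 0 genes were called. Of the primary granule genes 1 of 6 was higher and of the mast cell and basophil genes 1 of 7 lower. Among erythroid genes Car2 alone was called, higher by 4.20, while Car1 (-1.50) was not called. Among stromal genes Pecam1 alone was called, higher by 0.90. The part of these lists was not tested.

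The knockout effect was then compared between L-GMPs and CMPs by testing its difference. The L-GMP side rests on 1 knockout leukaemia in a recipient given cytokine vectors, so genotype, vectors and that leukaemia cannot be told apart there. For 6 members the effect was higher in L-GMPs and for 0 it was lower, where 2.02% of all genes were higher and 0.782% lower. Ctsh changed by 0.79 between knockout and control L-GMPs and by -2.62 between knockout and control CMPs, a difference of 3.41 (SE 0.35, adjusted p = 6.27e-05). Hexa changed by 0.34 and -1.38 (difference 1.72, SE 0.30, adjusted p = 0.00505) and Ctsz by 0.09 and -1.50 (difference 1.59, SE 0.24, adjusted p = 0.00186). Ctsb (difference 1.09), Gusb (0.76) and Lipa (1.52) made up the rest. The call of Lipa ended in 7 of 15 fits that left out 1 array (adjusted p up to 0.0662) and that of Gusb in 5 of 15 (up to 0.0556). The change between knockout and control L-GMPs was not called for any of the 6, while that between knockout and control CMPs was called for all but Lipa. Tfec had a difference of 3.20 (SE 0.41, adjusted p = 0.000517), Cst3 of 1.31 and Atp6v0e of 0.69. Of the monocyte genes 6 of 7 and of the primary granule genes 5 of 6 differed in the same direction, and their part was not tested.

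Control L-GMPs were compared with control GMPs, the normal cells they are named after. 2 members were higher in control L-GMPs and 6 lower, near the 10.6% and 14.7% of all genes called, so the count does not stand out from the background. The GMPs came from marrow that was neither cultured, infected nor transplanted, so those steps cannot be told apart from leukaemia. Ctsc, which activates the serine proteases of granules, was at 7.03, 6.54, 6.64 and 7.12 in control L-GMPs, against 9.32, 8.44 and 8.30 in GMPs (change -1.85, SE 0.46, adjusted p = 0.0096). Arsb was at 8.58, 7.79, 8.64 and 8.43 in control L-GMPs, against 9.36, 9.53 and 9.81 in GMPs (change -1.21, SE 0.25, adjusted p = 0.00365). Man2b1 was the reverse, at 9.81, 10.23, 10.48 and 10.28 in control L-GMPs, against 9.07, 9.01 and 9.21 in GMPs (change 1.10, SE 0.28, adjusted p = 0.0117). None of these 3 overlapped.

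Acp5 was at 6.12, 5.43, 5.65 and 5.93 in control L-GMPs and at 6.50, 7.02 and 6.67 in GMPs (change -0.94, SE 0.33, adjusted p = 0.048), a call that ended without any of 6 of the 7 arrays. Lipa was at 7.20, 6.01, 7.82 and 7.45 in control L-GMPs and at 8.09, 7.78 and 7.91 in GMPs (change -0.81, SE 0.25, adjusted p = 0.0295). Hexa was at 9.68, 10.07, 8.52 and 8.20 in control L-GMPs and at 9.73, 9.71 and 9.87 in GMPs (change -0.65, SE 0.22, adjusted p = 0.04). For both of these the control L-GMP arrays overlapped the GMP arrays, and each call ended without any of 5 of the 7 arrays. Ctsa was also higher (0.65), and Naglu, a further enzyme of heparan sulfate breakdown, lower (-0.48). Of 17 other membrane genes 5 were lower in control L-GMPs, with Clcn7, a chloride-proton exchanger of the lysosome, at -0.97. The V-ATPase genes Atp6v0a2 (-0.66) and Atp6v0e (-0.54) and, of the MiT/TFE factors, Tfe3 (-0.63) were also called lower. In the tagging and sorting list Nagpa (-0.76) and Cln6 (-0.77) were lower and Gga3 (0.48) was higher. Of the other hydrolases Plbd1 (-1.83) and Plbd2 (-0.45) were lower. The monocyte list had 3 of 7 genes lower and the primary granule list 2 of 6. The eosinophil list had 3 of 3 lower (Prg2 with -3.50, Epx with -2.60 and Ear6 with -2.41), with a mean of 4.85 to 5.73 in control L-GMPs and 8.06 to 8.21 in GMPs. The mast cell and basophil list had 1 of 7 lower (Prss34 with -3.83), and the mature neutrophil list 1 of 10 higher and 2 lower. The part of these lists was not tested.

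MLL-AF9 knockout CMPs were compared with knockout CMPs without it. 3 members were higher and 0 lower, where 1.51% of all genes were higher and 3.36% lower. Gaa, the glucosidase that degrades glycogen, was at 8.08, 7.13 and 8.01 in MLL-AF9 knockout CMPs, against 6.84, 6.93, 7.01 and 7.0 in knockout CMPs (change 0.80, SE 0.17, adjusted p = 0.0153). Ctsz was at 7.44, 7.21 and 7.58 in MLL-AF9 knockout CMPs, against 6.48, 6.85, 6.77 and 6.72 (change 0.70, SE 0.17, adjusted p = 0.031). Sgsh was at 6.44, 6.33 and 6.75 in MLL-AF9 knockout CMPs, against 6.07, 5.97, 5.79 and 6.11 (change 0.52, SE 0.11, adjusted p = 0.0163). The groups did not overlap for any of the 3, yet fitted alone they gave 0 calls, and array weights left 1, Gaa. Gaa was not called without the array of recipient mouse 9 (adjusted p = 0.0672), when 1 member was called in all. The call of Ctsz ended without any of 6 of the 7 arrays (up to 0.0917), and that of Sgsh without the third knockout CMP array (0.0547). Ctsh showed no call, at 4.22 to 4.40 in MLL-AF9 knockout CMPs and 4.11 to 4.31 in knockout CMPs. Both ranges lie below the median level of all genes (5.48), and the processing compresses changes of dim genes. Atp6v1f rose by 0.66 and Atp6v0e by 0.52 among 16 V-ATPase genes. Of the primary granule genes 3 of 6 were lower (Mpo with -3.97, Prtn3 with -1.79 and Ctsg with -1.79), with a list mean of 5.63 to 6.28 in MLL-AF9 knockout CMPs and 6.80 to 8.08 in knockout CMPs, and their part was not tested.

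Within the MLL-AF9 knockout progenitors, CMPs were compared with KSLs. 2 members were higher in CMPs and 0 lower, where 2.02% of all genes were higher and 1.3% lower. Gaa was at 8.08, 7.13 and 8.01 in CMPs, against 6.76 and 6.56 in KSLs (change 1.08, SE 0.20, adjusted p = 0.011). Naglu was at 5.76, 5.86 and 6.08 in CMPs, against 5.10 and 5.47 in KSLs (change 0.62, SE 0.15, adjusted p = 0.0355). Neither overlapped. Ids was next by the test without passing, at 6.32, 5.78 and 6.60 in CMPs and 8.02 and 6.68 in KSLs (change -1.12, SE 0.31, adjusted p = 0.0627). Since 2 recipient mice gave both cell types, the fit with the mouse as a block is the paired one. It called 3 members, 1 higher and 2 lower, and kept 1 of the 2 calls, losing that of Naglu. Counts went from 1 without the third CMP array to 7 without the second KSL array, and to 4 without the first KSL and 6 without the second CMP array. With array weights 0 members were called by limma, among 3 of all genes, and with these groups fitted alone 0 members, among 0 of all genes.

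Recipient mice also differed in these genes. The mast cell and basophil list had a mean of 9.57 in the CMPs and 9.84 in the KSLs of recipient mouse 9, against 6.15 to 6.40 on the other 3 arrays. 11 of 41 members (26.8%) were higher on both arrays of that mouse than on the other 3, where 10.5% of all genes were, and 4 (9.76%) were lower, where 11.8% of all genes were. This mouse was singled out after its values were seen, so these counts are a description. Ctsc was at 9.11 and 9.15 in CMPs and KSLs of that mouse, against 6.80 to 7.51 on the other arrays. Ctsd, the main aspartic protease of lysosomes, was at 10.79 and 10.99, against 9.36 to 10.02, and Cd63 at 11.35 and 11.94, against 10.03 to 10.54. Glb1 was at 9.37 and 9.13, against 7.20 to 7.85, Gla, an alpha-galactosidase, at 8.60 and 8.48, against 6.37 to 7.69, and Man2b1 at 9.51 and 9.39, against 8.03 to 8.50. These 6 genes, picked from the 11, were high in that mouse in both cell types. The 4 lower members were Ctsb, at 7.49 and 7.37 against 7.78 to 8.05, Psap, at 7.88 and 7.87 against 8.42 to 9.27, Npc1 and Acp2. Mitf, the MiT/TFE factor known for its role in mast cells, was at 8.51 and 8.31, against 4.57 to 5.29, and at no more than 6.18 on the arrays of all other groups. The part of mast cells or basophils in these levels was not tested.

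**Figure D5:**
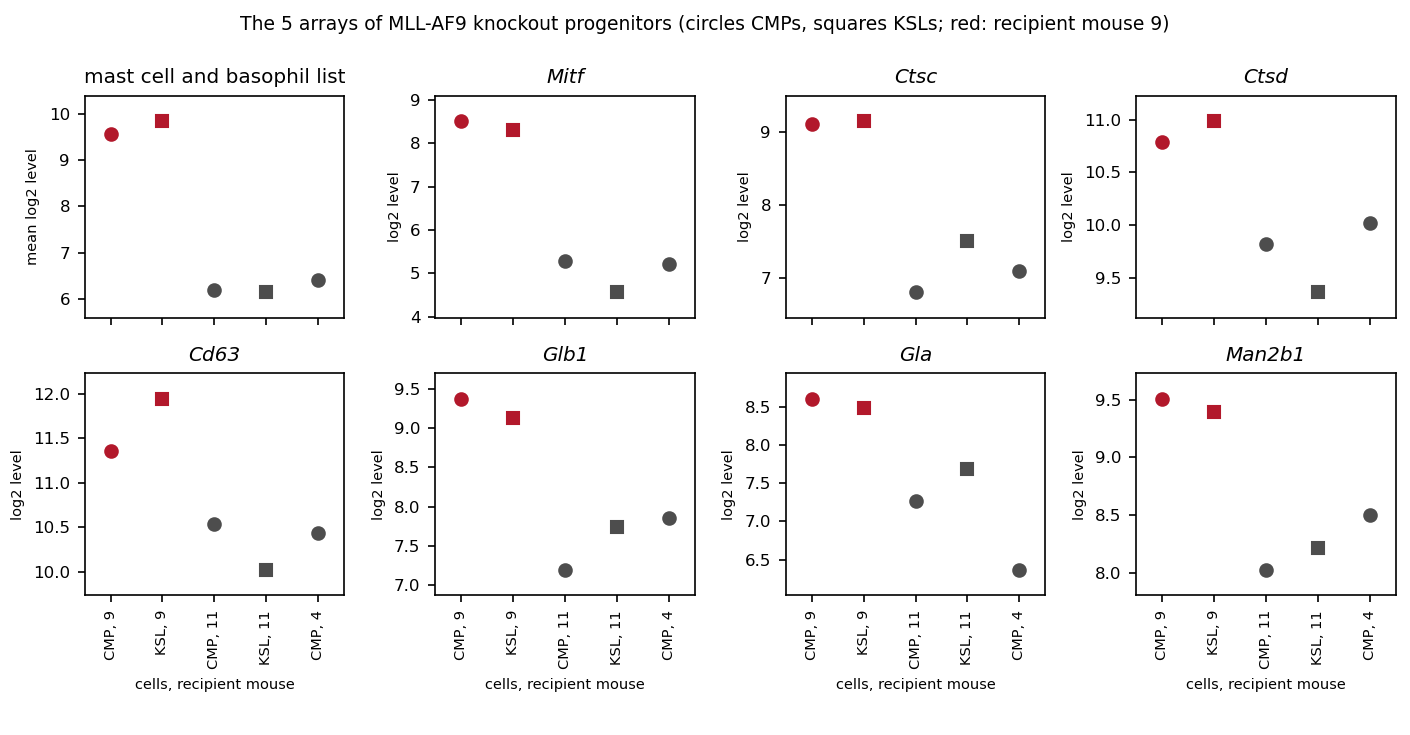
Mean log2 level of 7 mast cell and basophil genes, and log2 levels of Mitf and 6 lysosomal genes, on the 5 arrays of MLL-AF9 knockout progenitors, labelled by cell type and recipient mouse. Both arrays of recipient mouse 9 lie above the other 3 in every panel, for Mitf at 8.51 and 8.31 against 4.57 to 5.29. The 6 lysosomal genes were picked from the 11 members higher on both arrays of that mouse, so this holds by choice. The 4 members lower in that mouse are not drawn.

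Over the 8 comparisons between groups, 30 members were called at least once and 11 in none. The 11 were Ctsd, Cd63, Lgmn, Gla, Idua, Arsa, Psap, Tpp1, Scarb2, Mcoln1 and Fuca1, among them 3 of the 5 membrane genes. Of the 30, 14 were called in the higher direction only, 6 in the lower only and 10 in both. Arsb was called 5 times, 3 higher and 2 lower, and Ctsh, Ctsz, Ctsb and Galns each 3 times higher and 1 time lower. These counts mix comparisons that share arrays and are given as a description. The share of all genes called at least once was not counted, so these counts have no background to be read against.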

How the data were processed

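The authors deposited log2 values for 34760 probe sets per array, and RMA is named as their method, per the submitters' processing notes. The sources used here give no version of it. The method removes background, equalises array distributions and summarises probes, which compresses changes of dim genes and makes levels comparable within a gene and not between genes. The lowest deposited value is 3, held by 2952 to 3379 probe sets per array. Depth does not apply to arrays, and their number limits the precision. No pair of arrays held more than 0.00323% identical values above that limit, so each counted as 1 sample.

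In GEO's platform annotation 21640 probe sets carry 1 symbol, 1321 carry several and 11799 are listed with none. Of those with 1 symbol 21553 matched RefSeq (GRCm38.p6) by Entrez identifier. A linear model with a mean for each of the 9 groups was fitted over all 23 arrays (limma 3.58.1, R 4.3.3, 14 residual degrees of freedom), and variances were moderated by eBayes with a trend. A gene was called at a Benjamini-Hochberg adjusted p below 0.05 over 19937 genes, and counts print the share of all genes called. L-GMP and progenitor groups entered contrasts with equal weight per group. The code was tested on simulated data.

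The members and lists were chosen with earlier results of these data known. By rule, every array is given for at most 6 called members of largest change per comparison (the 3 of largest moderated statistic where fewer than 3 were called), and at most 4 called genes per pathway list are named. Alternatives were array weights, fits on the compared groups alone, a filter at log2 5 on 2 or more arrays, arrays shifted to 1 median, the mean of a gene's probe sets, no trend, the replicate number as a block and leaving out each array. Alternatives with the MLL-AF9 CMP arrays as sole progenitors, or without recipient mouse 9, were chosen after seeing the data. Replicate numbers did not pair CMPs (correlations of deviations from -0.205 to 0.077) or GMPs with CMPs (-0.029 to 0.122). MLL-AF9 CMPs and KSLs of the same mouse were paired (0.45 and 0.26). Coordinates other than promoter windows are not reported here.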

Additional observations from a re-analysis of the deposited data

Results flagged for a closer look

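In groups of 4 arrays the highest or lowest array was compared with the spread of the group by Dixon's ratio at its usual critical value, over 82 sets of values, and chance alone flags about 1 in 20 of them. 4 passed. Tpp1, a tripeptidyl peptidase, was low on the third knockout CMP array, at 7.81 against 7.98 to 8.01 (ratio 0.83). The second control CMP array stood apart for 3 members: Tpp1 at 8.14 against 7.70 to 7.76 (0.857), Smpd1 at 6.62 against 6.46 to 6.49 (0.834) and Grn at 9.30 against 9.46 to 9.49 (0.831). None of these genes was called between knockout and control CMPs.

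The knockout effect in L-GMPs differed from that in CMPs by a test of the difference itself for 6 members: by 3.41 log2 units for Ctsh, 1.72 for Hexa, 1.59 for Ctsz, 1.52 for Lipa, 1.09 for Ctsb and 0.76 for Gusb. Adjusted p ran from 6.27e-05 for Ctsh to 0.0261 for Lipa. All knockout L-GMP arrays descend from 1 leukaemia in a recipient given cytokine vectors, so these differences cannot be assigned to genotype alone. The calls of Lipa and Gusb ended in 7 and 5 of 15 fits that left out 1 array (adjusted p up to 0.0662 and 0.0556), and with the replicate number as a block (0.0678 and 0.0607).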

How the results depend on the processing

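0 of the tested changes of named members reversed under any alternative. Array weights moved the count of called members to 18 for knockout against control CMPs (from 7), 16 for GMPs against CMPs (from 6), 1 for knockout against control L-GMPs (from 2), 1 for MLL-AF9 knockout CMPs against knockout CMPs (from 3) and 0 for MLL-AF9 CMPs against KSLs (from 2). With the arrays of the compared groups fitted alone the counts were 15, 0, 0 and 0 for knockout CMPs, knockout against control L-GMPs, MLL-AF9 knockout CMPs and MLL-AF9 CMPs against KSLs, 9 (from 19) and 5 (from 23) for control and knockout L-GMPs against MLL-AF9 progenitors, and 13 (from 6) for the difference of knockout effects. These fits hold fewer arrays and estimate the spread from fewer groups. Calls over all genes moved too. With array weights they were 3762 (from 979), 1257 (from 209), 617 (from 651), 335 (from 972) and 3 (from 662), in the order given. With the groups fitted alone they were 3220, 11, 443, 0, 493 (from 3780), 347 (from 2632) and 1582 (from 558), in the order given. Arrays shifted to 1 median left 1 member for knockout against control L-GMPs.

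With the replicate number as a block, the counts were 6 for knockout CMPs, 5 for GMPs, 1 (from 2) for knockout against control L-GMPs, 5 (from 8) for control L-GMPs against GMPs, 2 for MLL-AF9 knockout CMPs, 25 and 24 for control and knockout L-GMPs against progenitors and 4 for the difference, where numbers do not show pairing. Calls over all genes were 688, 145, 483, 2980, 612, 4230, 3649 and 340 in that order.

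Leaving out single arrays gave 6 to 7 called members for knockout CMPs, 3 to 6 for GMPs, 0 to 5 for knockout against control L-GMPs, 17 to 25 and 17 to 24 for control and knockout L-GMPs against progenitors, 4 to 10 for control L-GMPs against GMPs, 1 to 7 for MLL-AF9 knockout CMPs, 1 to 7 for MLL-AF9 CMPs against KSLs and 4 to 8 for the difference of knockout effects. For control L-GMPs against GMPs the count was 4 without any 1 of the GMP arrays and 5 without the second secondary control array, and for MLL-AF9 knockout CMPs 1 without the third knockout CMP array and 7 without the third MLL-AF9 array. The cause was not tested. The transplant comparisons are limited by small groups, a single knockout leukaemia, cytokine vectors that go with genotype, different sort gates and unequal spread between groups.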

Other observations

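Primary and secondary control L-GMPs differed in single members, given here as values with no test. Hexa was at 8.52 and 8.20 in secondary and 9.68 and 10.07 in primary control L-GMPs. Ctsl was at 8.48 and 8.42 in secondary and 7.50 and 6.31 in primary control L-GMPs. In knockout L-GMPs Ctsh was at 8.78 and 9.42 in secondary and 7.58 in primary cells, and Ctse at 8.05 and 8.27 in secondary and 7.02 in primary cells.

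The 5 MLL-AF9 progenitor arrays also varied in Acp2, at 5.38, 6.11 and 7.21 in CMPs and 6.10 and 6.35 in KSLs, where knockout CMPs without MLL-AF9 stayed between 6.90 and 7.0.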
